A study of Mus musculus with 6 samples.

Results

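The nuclear receptor genes other than the LXR and RXR genes were described in bulk RNAseq of mammary tissue from mice treated with an LXR agonist. They were taken by gene symbol as a fixed family of 41 genes out of the 55385 genes of the deposited tables, and all 41 were found. The receptors were grouped by ligand and role into steroid receptors, estrogen-related receptors, PPARs, retinoic acid receptors, thyroid hormone and vitamin D receptors, clock receptors, bile acid and xenobiotic receptors, and the orphan HNF4, NR2C, NR2E, COUP-TF, NR4A, NR5, NR6 and NR0B genes.

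All mice were female and carried the NeuT/ATTAC transgenes. NeuT is a constitutively active rat ErbB2 with the V664E change, driven by MMTV, and ATTAC is an FKBPv-caspase-8 fusion driven by the FABP4 promoter, so that it is expressed in fat cells and activated by the dimerizer AP20187. According to the protocol, AP20187 was given at 0.4 mg/kg from 6 weeks of age to produce mammary fibrosis, and the treated mice then received DMHCA at 0.05% of the diet, equivalent to about 100 mg/kg, from 8 weeks of age. DMHCA, N,N-dimethyl-3-β-hydroxy-cholenamide, is an oxysterol agonist of the liver X receptors. There were 3 control and 3 DMHCA libraries. The treatment label of the controls names AP20187 and vehicle together, whereas the study describes the RNAseq samples as tumors of AP20187-treated mice, and the tissue label reads mammary gland fibrosis. The age at which the tissue was taken and the hour of the day are not given in the sources used here.

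Nuclear receptors are transcription factors that bind DNA through a zinc finger domain and, in many cases, are switched by a small lipid-soluble ligand such as a steroid, a retinoid, a fatty acid or a thyroid hormone. On binding a ligand, a receptor exchanges corepressors for coactivators, and many members, LXR among them, act as a heterodimer with RXR, so that these receptors share a partner and a pool of cofactors. In the mammary gland, the estrogen and progesterone receptors of hormone-sensing luminal cells drive ductal growth, the glucocorticoid receptor acts in lactation, PPARG governs the adipocytes of the fat pad, and the REV-ERB and ROR receptors form an arm of the circadian clock.

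Total expected counts ran from 46358735 to 63420673 per library. DMHCA libraries 1 and 3 differed far less than any other pair of libraries of one group: their biological coefficient of variation was 0.0327, against 0.376 to 0.579 in the other pairs, and 18.2% of 13380 genes differed between them by a chi-square test, against 82.0 to 87.0% in the other pairs. They were therefore added together and counted as 1 sample, called the merged DMHCA sample, which left 3 control and 2 DMHCA samples. A pair of DMHCA values is that of library 2 and of the merged sample, in that order. Luminal epithelial markers were abundant in every sample, with a summed normalized count of 254322 to 357218 in the controls and 293870.0 and 348027 with DMHCA. The largest parts of this sum were Epcam, Krt18 and Krt8, and it hides differences between the 7 markers. With DMHCA, 3 of them had a higher mean and 4 a lower one. Krt8 lay above every control and Krt7 below, at log2 fold changes of 0.52 and -1.75, while Krt19 was at -4.01 with overlapping samples. Control 3 stood apart by its adipocyte, B cell and T cell markers, with an adipocyte sum of 25400.5 against 7005 and 1944 in the other controls and 1205 and 1750.5 with DMHCA. Its milk protein sum of 1997730.0 and macrophage sum of 108805 were also above those of the other samples, which reached 924043 and 53665, as was its basal cell sum of 12212, against at most 5757. Control 1 stood apart by a salivary gland marker sum of 328054, against at most 4239 in any other sample. In such bulk tissue, fewer cells of a type and less RNA per cell cannot be told apart.

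With DMHCA, Esr1, the estrogen receptor alpha gene, was lower and Nr4a1, Ppard and Thrb were higher than in any control, at an unadjusted p under 0.05 in edgeR, a threshold that Ppard and Thrb met narrowly and that Nr4a3, lower than in any control, narrowly missed. Of the 41 genes, 30 passed the filter on low counts and were tested, and 11 were too low to test. None of the 30 passed an adjusted p of 0.05 in edgeR's quasi-likelihood test over 19535 genes, in which no gene at all passed (0.00%) and the smallest adjusted p was 0.648. At an unadjusted p under 0.05, 3 of the 30 were higher with DMHCA, Nr4a1, Ppard and Thrb, where 3.36% of all genes were, and 1 was lower, Esr1, where 4.22% were, so that 4 of 30 stood against 1480 of all genes, 7.58%. DESeq2 called 1 member on the 5 samples, Esr1, which was lower, with 1.20% of its genes called and 0.956% called lower. On the 6 libraries taken as separate samples it called 2, Esr1 and Nr4a3, both lower, with 4.14% called and 2.80% called lower. The fit on 6 libraries counts the near-identical DMHCA libraries 1 and 3 as 2 samples, so that its p-values are too small. Nr4a3 was called only in that fit. All DMHCA samples lay above all controls for 5 members, Esrra, Ppard, Thrb, Nr4a1 and Nr6a1, and below them for 3, Esr1, Rara and Nr4a3, while 13.1% and 12.7% of all genes did so. The mean was higher with DMHCA for 19 of the 30 and lower for 11, and the median log2 fold change was 0.25 over the 30 members and -0.05 over all genes tested. DMHCA library 2 held the highest value for 14 of the 30 members, 46.7%, against 20.5% of all genes, and control 3 held it for 8, 26.7%, against 27.9% of all genes.

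**Figure D1:**
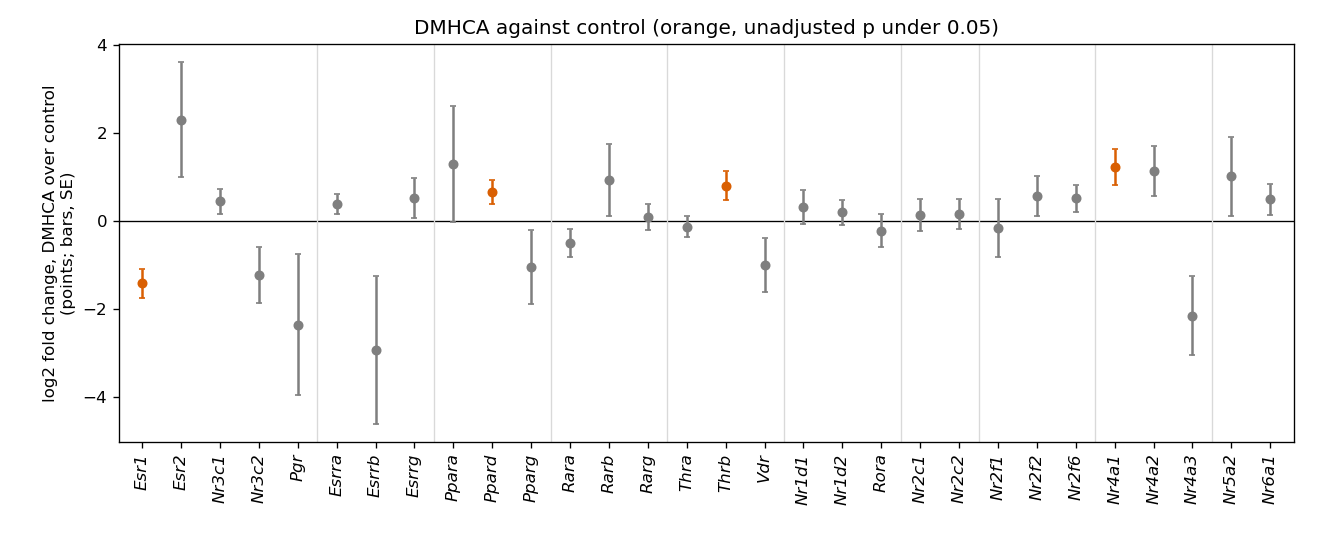
The log2 fold change of DMHCA over control is plotted for the 30 tested receptors, grouped by role, with bars for its standard error; the 4 orange points are those with an unadjusted p under 0.05. Esr1 lies at -1.42 with a short bar, while the larger negative values of Pgr and Esrrb have bars several times as long.

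Between genes, levels can be compared only per length, in TPM. Nr4a1 had the highest mean TPM of the family, 97.1, with a range over the 6 libraries of 33.1 to 184. Nr2f6, a COUP-TF gene also called Ear2, followed at 57.1, with a range of 35.5 to 91.5, and Nr1d2, the REV-ERB beta gene, at 40.2. These ranges overlapped too, and in control 3 Nr2f6 was above Nr4a1 and Esrra above Nr1d2. Esrra at 37.7, Rarg at 33.4 and Nr3c1 at 31.1 mean TPM came next, and their ranges over the libraries overlapped one another. Vdr had a mean of 22.1 TPM, Thra 19.4, Ppard 19.1 and Nr1d1 19, again with overlapping ranges, so that the order of neighbours among these 10 genes did not exceed the spread between libraries. Esr1, at 3.22 mean TPM, and Pgr, at 0.477, were low members in this tissue.

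**Figure D2:**
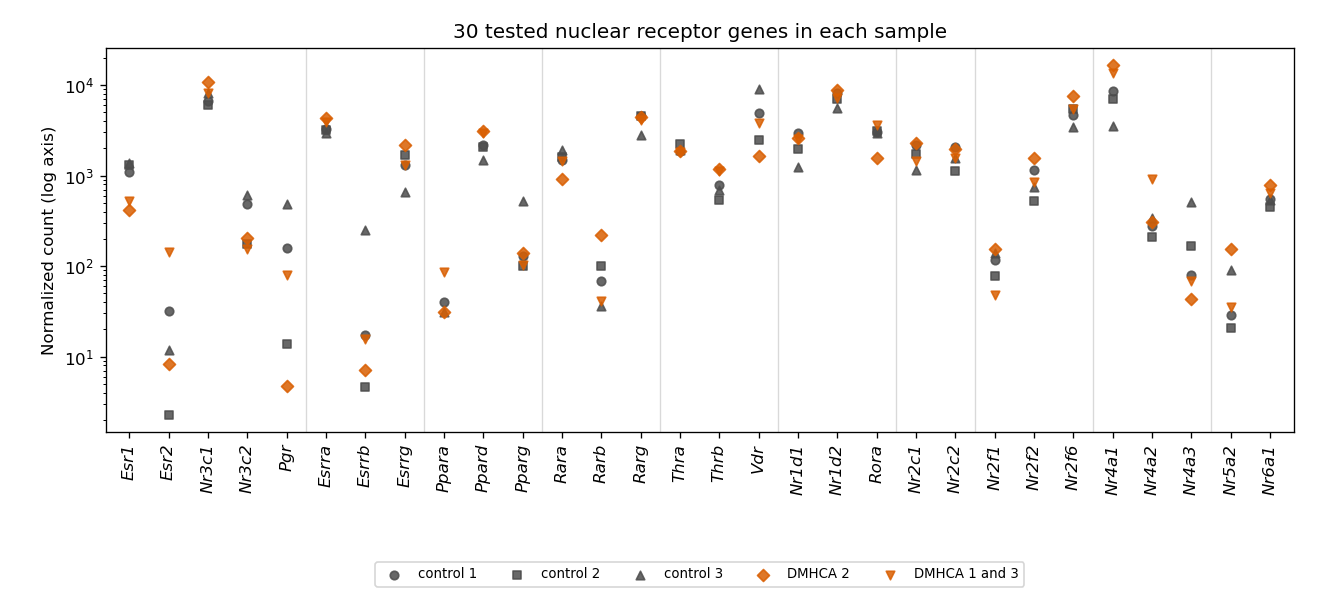
Normalized counts, on a log axis, are plotted for the 30 tested receptors in each of the 5 samples, with controls in grey and DMHCA in orange; a count of 0 for Ppara in control 2 is not drawn. Nr3c1, Nr1d2 and Thra form tight columns, whereas Esr2, Pgr and Esrrb are spread widely among the controls themselves.

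Esr1 encodes estrogen receptor alpha, the estrogen-activated factor of hormone-sensing luminal cells. Its normalized counts were 1084, 1321 and 1377 in the controls, 416 in DMHCA library 2 and 528 in the merged DMHCA sample. The 3 controls lay close together, and both DMHCA samples lay far below the lowest of them. The means were 1261 ± 156 (SD, n = 3) and 472 ± 79 (SD, n = 2), so that the control mean was 2.67 times the DMHCA mean. The log2 fold change was -1.42 with a standard error of 0.33, and edgeR gave an unadjusted p of 0.00445 and an adjusted p of 0.648. DESeq2 gave an adjusted p of 0.0184 on the 5 samples. On the 6 libraries it gave 7.48e-04, which counts DMHCA libraries 1 and 3 apart and is too small. In TPM, Esr1 was 4.11, 3.63 and 4.72 in the controls and 1.93, 1.69 and 1.94 in DMHCA libraries 1 to 3. Leaving out each library in turn gave a log2 fold change of -1.51 to -1.21, but DMHCA libraries 1 and 3 were never left out together. On log2(TPM + 1), a scale that understates changes of low genes, limma gave -0.87.

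The other steroid receptors showed no such separation. Pgr, the progesterone receptor and an estrogen receptor target, had normalized counts of 158, 13.8 and 485 in the controls, 4.78 in DMHCA library 2 and 79 in the merged DMHCA sample. Control 2 lay between the DMHCA samples, so that the groups overlapped. Its log2 fold change was -2.36 ± 1.6 (SE) with an unadjusted p of 0.187 in edgeR, and it was -1.02 without control 3 and -1.41 without DMHCA library 2. Nr3c2, the mineralocorticoid receptor gene, had 481, 178 and 609 normalized counts in the controls, and 206 and 154 with DMHCA, a log2 fold change of -1.23 ± 0.64 (SE) with an unadjusted p of 0.0968. Control 2 again lay among the DMHCA samples. Esr2, the estrogen receptor beta gene, had 32.3, 2.29 and 11.7 normalized counts in the controls, 8.37 in DMHCA library 2 and 144 in the merged DMHCA sample, so that its higher mean came from 1 DMHCA sample alone. Its log2 fold change was 2.30 ± 1.31 (SE), with an unadjusted p of 0.125 and a value of 3.45 without control 1.

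Of 14 estrogen and progesterone receptor target genes, all tested, 2 were lower in the DMHCA group at an unadjusted p under 0.05, none was higher, 3 lay without overlap below the controls and 2 above them, and the median log2 fold change was -0.15, which turned to 0.08 over the 12 genes tested without control 3 and to 0.02 without DMHCA library 2. Areg, the amphiregulin gene that relays estrogen signals in the duct, had 255, 1036 and 951 normalized counts in the controls and 61 and 166 with DMHCA, a log2 fold change of -2.71 ± 0.81 (SE) with an unadjusted p of 0.0138. All controls were above both DMHCA samples. Calca, the calcitonin gene and a progesterone target, was also lower in both DMHCA samples than in any control, at a log2 fold change of -4.40 ± 1.32 (SE) with an unadjusted p of 0.0139, on counts of only 6.92 to 103 in the controls and 1.2 and 3.62 with DMHCA. Calca passed the filter on low counts only through controls 2 and 3, so its lower value with DMHCA is not independent of that filter. It is 1 of the 2 lower genes counted above. With control 2 or control 3 left out, it was too low to test. Tnfsf11, the RANKL gene, had a log2 fold change of -2.14 with an unadjusted p of 0.0635, and Wnt4 had -2.61 with 0.0696. Both are paracrine signals of progesterone, and both were highest in control 3, without which their log2 fold changes were -0.86 and -0.84. Greb1, a classical estrogen receptor target, was low throughout, at 13 to 21.8 normalized counts in the controls and 26.3 and 24.1 with DMHCA. It was 1 of the 2 targets above every control, at a log2 fold change of 0.53. Of the 14 targets, 6 had a higher mean with DMHCA and 8 a lower one.

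Among 7 genes that mark or help hormone-sensing luminal cells, 1 was lower at an unadjusted p under 0.05, none was higher, and the median log2 fold change was -0.75, or -0.01 without control 3. Ly6d, a surface protein of luminal cells, had 1289, 446 and 4826 normalized counts in the controls and 23.9 and 214 with DMHCA, a log2 fold change of -4.19 ± 1.37 (SE) with an unadjusted p of 0.02. Foxa1, the pioneer factor that opens chromatin for estrogen receptor alpha, had 129, 14.9 and 813 normalized counts in the controls and 7.17 and 68.2 with DMHCA. Control 2 lay between the DMHCA samples, unlike any control for Esr1, and its log2 fold change of -3.06 (unadjusted p = 0.122) was -0.92 without control 3. Cited1, an estrogen receptor coactivator, had a log2 fold change of -2.94 (unadjusted p = 0.097), and -0.22 without control 3. Prom1, a marker of hormone-sensing cells in mice, went the other way, at 8439, 7689 and 2128 normalized counts in the controls and 16682 and 11111 with DMHCA, a log2 fold change of 1.19 ± 0.57 (SE) with an unadjusted p of 0.079. Of the 7 genes, 5 had a lower mean with DMHCA and 2 a higher one, with Tbx3 at -0.75, Prlr at -0.10 and Gata3 at 0.23 on the log2 scale. Without control 3, Tbx3 turned to 0.24, Prlr was at -0.01 and Prom1 at 0.78, and without DMHCA library 2 Gata3 was at 0.66, whereas it was near 0 without control 2. The part of cell content in the difference of Esr1 was not tested.

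Nr3c1, the glucocorticoid receptor gene, was the most abundant steroid receptor. Its normalized counts were 6673, 5952 and 8258 in the controls, 10840.4 in DMHCA library 2 and 8120.3 in the merged DMHCA sample. Only DMHCA library 2 lay above every control, and the groups overlapped. Of 14 glucocorticoid receptor targets, all tested, 1 was lower and none higher at an unadjusted p under 0.05, with a median log2 fold change of -0.16, or -0.02 without control 3. The lower gene was Zbtb16, which encodes the PLZF zinc finger protein, at 102, 24.1 and 889 normalized counts in the controls and 10.8 and 19.9 with DMHCA, a log2 fold change of -4.43 ± 1.64 (SE), unadjusted p = 0.0324, or -2.01 without control 3. Per1, which is also a clock gene, had a log2 fold change of 0.61 (unadjusted p = 0.0604), Nfkbia, the inhibitor of NF-κB, -0.93 (unadjusted p = 0.101) and Klf9 -0.48 (unadjusted p = 0.157). Nfkbia was at -0.38 without control 3, and without DMHCA library 2 Klf9 was at -0.13 and Per1 at 0.92.

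The estrogen-related receptors are orphan relatives of the estrogen receptors and control genes of mitochondrial respiration. Esrra had normalized counts of 3244, 3227 and 2966 in the controls, 4348 in DMHCA library 2 and 3890.0 in the merged DMHCA sample. The controls were nearly equal and both DMHCA samples lay above them, yet the difference was small, a log2 fold change of 0.39 ± 0.22 (SE) with an unadjusted p of 0.127. Esrra overlaps the antisense gene Trmt112, and whether counting used the strand is not given in the sources used here. Esrrg had 1321, 1678 and 666 normalized counts in the controls and 2186 and 1299.9 with DMHCA, with overlapping groups. Esrrb was high in control 3 alone, at 248 normalized counts against 17.3 and 4.59 in the other controls and 7.17 and 15.7 with DMHCA. Its log2 fold change of -2.93 ± 1.67 (SE), unadjusted p = 0.126, turned to 0.09 without control 3. None of 9 partners and targets of these receptors passed an unadjusted p of 0.05 in edgeR, in 1 direction or the other, and their median log2 fold change was 0.07, or 0.26 without control 2 and -0.04 with the 6 libraries as separate samples in edgeR. Idh3a, a citric acid cycle enzyme gene, had a log2 fold change of -0.62 (unadjusted p = 0.356), which turned to 0.26 without control 2. Cycs, the cytochrome c gene, had -0.39 (unadjusted p = 0.334) and Perm1, a partner of these receptors in muscle, 0.70 (unadjusted p = 0.357). Cycs was at -0.05 without control 2, and Perm1 at 1.46 without DMHCA library 2, which had the lowest sum of 6 skeletal muscle markers, 12486 normalized counts against 35593 to 78707 in the other samples. The part of muscle content in these values was not tested.

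The 3 PPARs, receptors of fatty acids and their derivatives, differed widely in level. Ppard, the broadly expressed delta form, had normalized counts of 2152, 2079 and 1479 in the controls, 3079 in DMHCA library 2 and 2942 in the merged DMHCA sample. Both DMHCA samples were above every control, with means of 1904 ± 369 (SD, n = 3) and 3011 ± 96.6 (SD, n = 2), a ratio of 1.58. This was a log2 fold change of 0.66 with a standard error of 0.27, and edgeR gave an unadjusted p of 0.0447 and an adjusted p of 0.648. Ppara, the alpha form of liver and muscle, was near the detection limit, at 40.4, 0 and 31.3 normalized counts in the controls and 31.1 and 85.1 with DMHCA, with overlapping groups, a log2 fold change of 1.29 ± 1.32 (SE) with an unadjusted p of 0.364, and 1.90 without control 1 and 0.71 without control 2. Of 14 targets of these 2 receptors, 12 were tested, none had an unadjusted p under 0.05 in edgeR, the median log2 fold change was -0.51, and 9 had a lower mean with DMHCA. This median was -0.10 without control 3 and -0.05 without DMHCA library 2. Among those of smallest p were Ucp3, a mitochondrial carrier, at a log2 fold change of -3.63 (unadjusted p = 0.0557), the fatty acid oxidation gene Acadm at -0.52 (unadjusted p = 0.0971) and the thioesterase gene Acot1 at -0.63 (unadjusted p = 0.2). Without control 3, Ucp3 was at -1.23, and without DMHCA library 2 Acot1 was at -0.08 and Acadm at -0.34.

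Pparg, the master regulator of adipocytes, was high in control 3 alone. It had normalized counts of 129, 99.8 and 528 in the controls, 141 in DMHCA library 2 and 104 in the merged DMHCA sample. Controls 1 and 2 were level with the DMHCA samples, and the log2 fold change of -1.04 ± 0.84 (SE), unadjusted p = 0.256, became 0.09 when control 3 was left out. Several of its targets were lower with DMHCA with or without control 3. Of 14 PPARG adipocyte targets, all tested, 7 were lower in the DMHCA group at an unadjusted p under 0.05 and none higher, 8 lay below every control and none above, and the median log2 fold change was -2.43. DESeq2 called 5 of the 14 on the 5 samples and 7 on the 6 libraries at an adjusted p under 0.05. Without control 3, edgeR again gave 7 lower and none higher at an unadjusted p under 0.05, with a median of -1.17, where 3.39% of all genes were lower and 2.01% higher.

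The 4 PPARG targets with the smallest p were the lipid droplet genes Cidec and Plin4, the adiponectin gene Adipoq and Pck1, which encodes a glyceroneogenesis enzyme. Cidec had 605, 356 and 3327 normalized counts in the controls and 52.6 and 32 with DMHCA, a log2 fold change of -5.08 ± 1.19 (SE) with an unadjusted p of 0.00441. Adipoq had 853, 337 and 3734 in the controls and 63.4 and 39.8 with DMHCA, a log2 fold change of -5.0 ± 1.18 (SE), unadjusted p = 0.00457. Plin4 stood at -3.23 (unadjusted p = 0.00493) and Pck1 at -5.86 (unadjusted p = 0.00554). Every control exceeded both DMHCA samples for these 4 genes, and without control 3 their log2 fold changes were -3.52 for Cidec, -3.54 for Adipoq, -2.56 for Plin4 and -4.47 for Pck1. Several of these targets are themselves adipocyte markers. Of 7 adipocyte markers, 6 were lower at an unadjusted p under 0.05, and none was at 0 in any sample. The summed normalized count of the 7 was 1944 to 25400.5 in the controls and 1205 and 1750.5 with DMHCA. Most of the DMHCA sums came from Lipe, the marker without such a p, at 705 and 1556 normalized counts against 516 in control 2. The part of adipocyte content in the values of the PPARG targets was not tested.

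**Figure D3:**
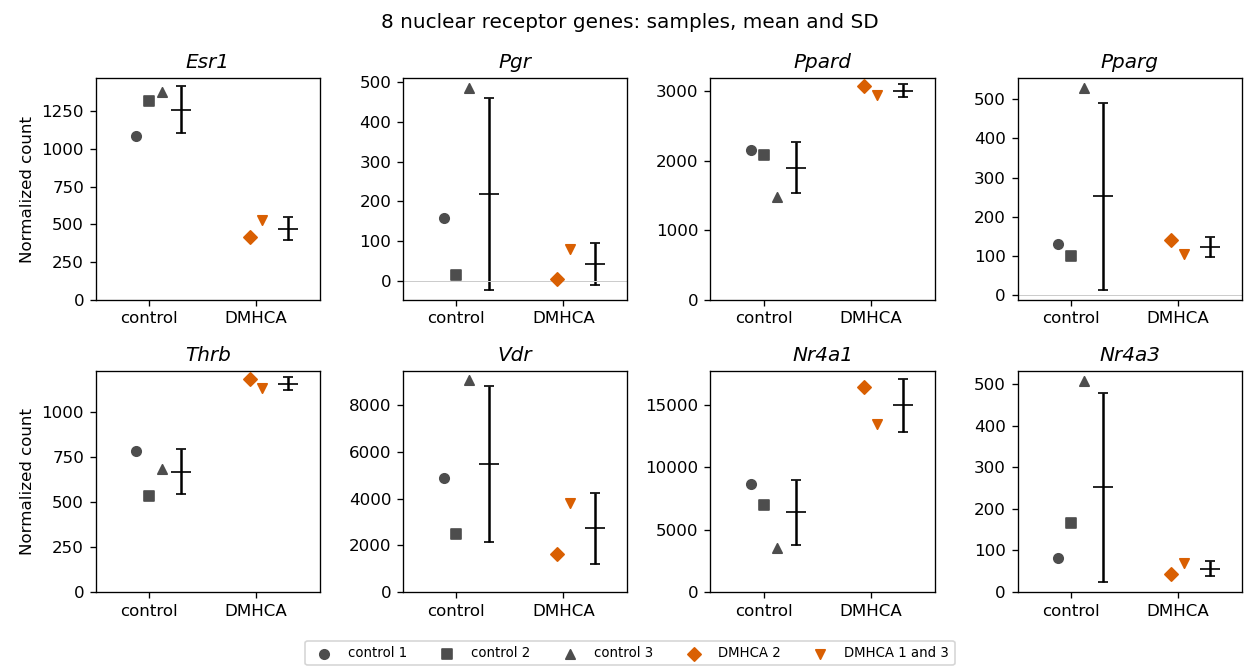
Normalized counts of 8 receptors are plotted for each sample, with the mean and SD of the 3 control and 2 DMHCA samples beside them. Esr1, Ppard, Thrb and Nr4a1 separate the groups, and the control means of Pgr, Pparg, Vdr and Nr4a3 are raised by control 3, the triangle. Nr4a3 separates them too, with control 1 close to the merged DMHCA sample.

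The retinoic acid receptors bind all-trans retinoic acid as partners of RXR. Rara had normalized counts of 1503, 1602 and 1905 in the controls, 927 in DMHCA library 2 and 1436 in the merged DMHCA sample. Both DMHCA samples lay below every control, although the merged sample was close to control 1, and the log2 fold change was -0.50 ± 0.32 (SE) with an unadjusted p of 0.161, or -0.17 without DMHCA library 2. Rarg, the most abundant of the 3 and the form known from epithelia, had 4592, 4604 and 2803 in the controls and 4386 and 4118 with DMHCA, with overlapping groups. Rarb, itself a retinoic acid target, ranged from 36.5 to 101 in the controls and was 219 in DMHCA library 2 and 41.6 in the merged DMHCA sample.

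Of 14 genes that make, carry or answer retinoic acid, all tested, 3 were lower and 1 higher at an unadjusted p under 0.05. Of all genes, 4.22% and 3.36% were. With DMHCA, 4 lay below every control and 2 above, where 12.7% and 13.1% of all genes did so. The median log2 fold change was -0.66, or -0.29 without control 1 and -1.04 without DMHCA library 2. Aldh1a3, a retinaldehyde dehydrogenase that makes retinoic acid, had 5753, 2651 and 2664 normalized counts in the controls, 1032 in DMHCA library 2 and 439.7 in the merged DMHCA sample. Neither DMHCA sample reached the lowest control, with a log2 fold change of -2.33 ± 0.56 (SE) and an unadjusted p of 0.00476, and its adjusted p in DESeq2 was 0.0215 on the 5 samples and 2.04e-04 on the 6 libraries. Crabp1, a retinoic acid binding protein gene, was at -2.78 ± 1.09 (SE), unadjusted p = 0.0408, with overlapping samples, and -1.68 without control 3. Rdh10, the retinol dehydrogenase of the step before Aldh1a3, was higher in both DMHCA samples, at 1948, 917 and 1228 normalized counts in the controls and 4203 and 2249 with DMHCA, a log2 fold change of 1.24 ± 0.42 (SE), unadjusted p = 0.023, and 0.76 without DMHCA library 2.

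Of the 2 thyroid hormone receptors, Thrb separated the groups and Thra did not. Thrb had normalized counts of 782, 534 and 685 in the controls, 1186 in DMHCA library 2 and 1132 in the merged DMHCA sample. Both DMHCA samples were above the highest control, with means of 667 ± 125 (SD, n = 3) and 1159 ± 38.6 (SD, n = 2), a ratio of 1.74. It amounted to a log2 fold change of 0.80 with a standard error of 0.33, and edgeR gave an unadjusted p of 0.0482 and an adjusted p of 0.648. Thra was among the most even members, at 1846, 2258 and 1942 in the controls and 1849.8 and 1841 with DMHCA, although its exons overlap the antisense gene Nr1d1 and the reads of the pair may not have been separated. Vdr, the vitamin D receptor gene, had normalized counts of 4875, 2493 and 9082 in the controls, 1643 in DMHCA library 2 and 3798 in the merged DMHCA sample. The groups overlapped, the controls differed 3.64-fold among themselves, and the log2 fold change of -1.01 ± 0.61 (SE), unadjusted p = 0.146, was -0.44 without control 3 and -0.48 without DMHCA library 2.

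Of 10 genes of thyroid hormone and vitamin D metabolism and response, 9 were tested. At an unadjusted p under 0.05, 2 were higher and 1 lower, against 3.36% and 4.22% of all genes. Above every control lay 4 and below them none, against 13.1% and 12.7% of all genes. The median log2 fold change was 0.71, or 1.32 without control 1. Dio2, the deiodinase that converts thyroxine to active triiodothyronine, had 287, 219 and 139 normalized counts in the controls, 1985 in DMHCA library 2 and 328 in the merged DMHCA sample. The DMHCA samples were both above the controls, but its log2 fold change of 2.42 ± 0.75 (SE), unadjusted p = 0.0163, was 0.64 without DMHCA library 2. Hr, a thyroid hormone response gene and corepressor, was at 1.34 (unadjusted p = 0.0697) with overlapping samples, and 0.38 without DMHCA library 2. Trpv6, a vitamin D-responsive calcium channel gene, was the lower one, at 851, 2835 and 67.8 in the controls and 105 and 13.9 with DMHCA, a log2 fold change of -4.41 ± 1.68 (SE), unadjusted p = 0.0362, with control 3 below DMHCA library 2. Cyp24a1, the vitamin D-degrading enzyme gene and a classical target of Vdr, lay the other way, at 233, 16.1 and 233 normalized counts in the controls and 561 and 699 with DMHCA, a log2 fold change of 1.97 ± 0.97 (SE), unadjusted p = 0.0854.

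The REV-ERB receptors Nr1d1 and Nr1d2 repress, and the ROR receptors activate, the same response element in Arntl and other clock genes. None of the 3 tested clock receptors separated the groups. Nr1d1 had normalized counts of 2953, 1954 and 1251 in the controls and 2569.6 and 2541 with DMHCA, so that both DMHCA samples fell inside the range of the controls. Nr1d2 had 8221, 7017 and 5609 in the controls and 8713 and 7166 with DMHCA. Rora was 3069, 3085 and 2927 in the controls, 1547 in DMHCA library 2 and 3653 in the merged DMHCA sample, with the 3 controls nearly equal and the DMHCA samples on either side of them.

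Clock genes outside the receptor family had a higher mean with DMHCA in 13 of 15 cases, where 9134 of all 19535 genes did. All 15 were tested, of which 5 were higher with DMHCA at an unadjusted p under 0.05 and 1 was lower. Of all genes, 3.36% and 4.22% were. Above every control lay 8 and below them 1, against 13.1% and 12.7% of all genes, and the median log2 fold change was 0.61. Cry2, a repressor of the clock, had 2190.3, 1561 and 1304 normalized counts in the controls and 3004 and 5332 with DMHCA, a log2 fold change of 1.31 ± 0.36 (SE), unadjusted p = 0.00891. Hlf, a PAR bZIP output factor, had 5916, 4282 and 3562 in the controls and 9274 and 9462 with DMHCA, a log2 fold change of 1.03 ± 0.29 (SE), unadjusted p = 0.0106. Per2, another repressor, was at 1.07 ± 0.38 (SE), unadjusted p = 0.0266, and Hlf's relatives Tef and Dbp were the other 2 higher genes, at 0.91 (unadjusted p = 0.0282) and 1.29 (unadjusted p = 0.0465), the latter 2.03 without control 1. All 5 lay above every control in both DMHCA samples. Bhlhe41, the DEC2 repressor, was the lower gene, at 5904, 6940.5 and 10634 normalized counts in the controls and 841 and 2823 with DMHCA, a log2 fold change of -2.09 ± 0.58 (SE), unadjusted p = 0.00951. Arntl, the direct target of REV-ERB and ROR, had 1185, 1093 and 1218 in the controls, 588 in DMHCA library 2 and 1849 in the merged DMHCA sample. The 3 controls were again nearly equal and the DMHCA samples lay on either side of them, in the same order as for Rora. Without control 3, 3 clock genes were higher and 1 lower at an unadjusted p under 0.05, with a median of 0.65, where 2.01% and 3.39% of all genes were. Without DMHCA library 2, 10 of the 15 had a higher mean and the median was 0.92.

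**Figure D4:**
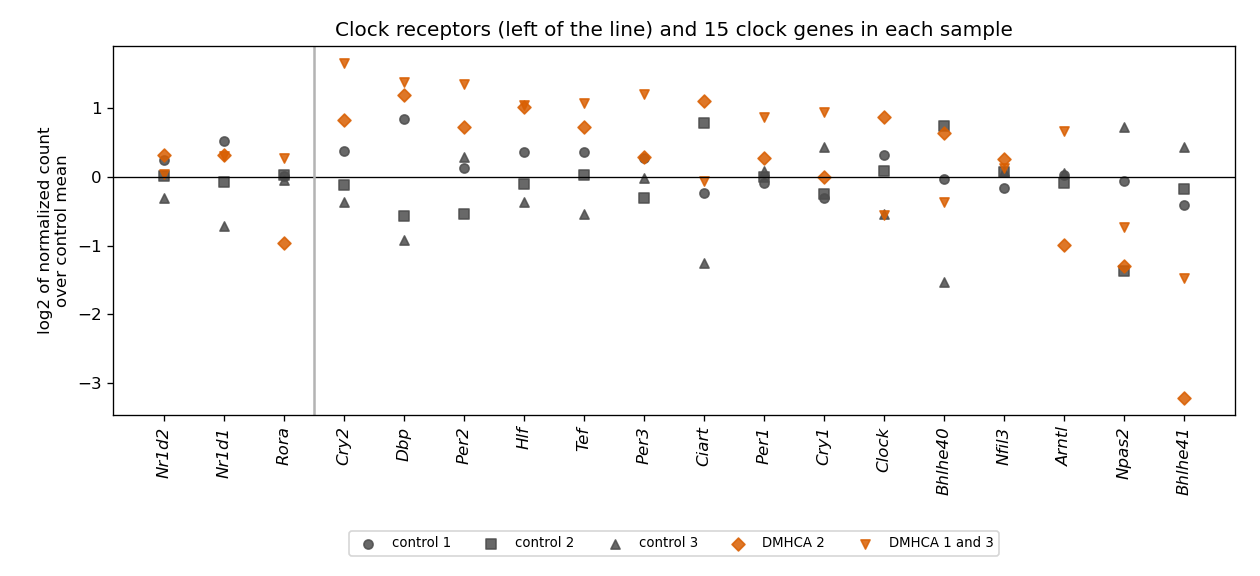
The log2 of each sample's normalized count over the control mean is plotted for Nr1d2, Nr1d1 and Rora, left of the line, and for 15 clock genes. Both orange DMHCA symbols lie above all grey control symbols for Cry2, Dbp, Per2, Hlf and Tef and below them for Bhlhe41, while the receptors overlap.

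The COUP-TF genes encode orphan factors that often oppose other receptors on shared response elements. Nr2f6 had normalized counts of 4727, 5486 and 3417 in the controls, 7562 in DMHCA library 2 and 5406 in the merged DMHCA sample, so that only DMHCA library 2 exceeded every control. Nr2f6 overlaps the antisense gene Ocel1, and exons of Nr2f1, Nr2f2, Nr2c2, Rora, Rarb and Nr3c2 overlap antisense genes too, so that all 7 values are uncertain where strands were not separated. Nr2f2 ranged from 529.8 to 1142 in the controls and was 1558 and 841 with DMHCA, and Nr2f1 ranged from 78 to 141 and was 153 and 48.3. The testicular receptors Nr2c1 and Nr2c2, repressors with broad expression, also overlapped between the groups, with log2 fold changes of 0.13 and 0.15.

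The 3 NR4A genes encode receptors without an open ligand pocket that are induced within minutes as immediate early genes. Nr4a1, also called Nur77, had normalized counts of 8667, 6940.5 and 3539 in the controls, 16472 in DMHCA library 2 and 13487 in the merged DMHCA sample. Both DMHCA samples were well above the highest control, with means of 6382 ± 2609 (SD, n = 3) and 14979.6 ± 2111 (SD, n = 2), a ratio of 2.35. The log2 fold change was 1.23 with a standard error of 0.40, edgeR gave an unadjusted p of 0.0203 and an adjusted p of 0.648, and DESeq2 gave an adjusted p of 0.267 on the 5 samples and 0.065 on the 6 libraries. In TPM, Nr4a1 was 86.8, 50.8 and 33.1 in the controls and 129.9, 184 and 132 in DMHCA libraries 1 to 3. Nr4a3, also called Nor1, lay the other way, at normalized counts of 80.8, 165 and 508 in the controls, 43 in DMHCA library 2 and 69.4 in the merged DMHCA sample. Both DMHCA samples were below every control, but control 1 was close to the merged DMHCA sample. The log2 fold change of Nr4a3 was -2.15 ± 0.90 (SE), or -1.12 without control 3. Its unadjusted p in edgeR was 0.0500, just over the threshold. Its adjusted p in DESeq2 was 0.224 on the 5 samples and 0.0492 on the 6 libraries, which count DMHCA libraries 1 and 3 apart. Nr4a2, also called Nurr1, had 280.4, 212 and 344 in the controls, 308 in DMHCA library 2 and 912 in the merged DMHCA sample, so that only the last stood above the controls, with a log2 fold change of 1.13 ± 0.56 (SE), unadjusted p = 0.0868, and 1.75 without DMHCA library 2.

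The upstream sequences of the 3 NR4A genes are shown because these genes share one kind of element. The difference in fold change between the 3 genes was not tested. They are from RefSeq on GRCm38.p6, 5′ to 3′ on the strand of the gene, and cover the 250 bases before the start of Nr4a1 at chr15:101266596-101266845 on the plus strand and of Nr4a2 at chr2:57124004-57124253 on the minus strand. For Nr4a3, they cover the 98 bases at chr4:48045055-48045152 on the plus strand that precede the first exon of the gene in GENCODE M21. The Nr4a1 window lies inside the gene as GENCODE annotates it, in an intron of its longer transcripts, and the Nr4a2 window directly precedes the gene. Capitals mark TGACG on either strand, read CGTCA on the other, the half-site of the cyclic AMP response element bound by CREB.
Nr4a1: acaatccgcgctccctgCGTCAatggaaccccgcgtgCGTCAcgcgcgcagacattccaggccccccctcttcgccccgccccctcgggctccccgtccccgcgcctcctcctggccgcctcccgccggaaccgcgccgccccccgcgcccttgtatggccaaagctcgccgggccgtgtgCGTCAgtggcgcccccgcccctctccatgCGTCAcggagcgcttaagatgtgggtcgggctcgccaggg
Nr4a2: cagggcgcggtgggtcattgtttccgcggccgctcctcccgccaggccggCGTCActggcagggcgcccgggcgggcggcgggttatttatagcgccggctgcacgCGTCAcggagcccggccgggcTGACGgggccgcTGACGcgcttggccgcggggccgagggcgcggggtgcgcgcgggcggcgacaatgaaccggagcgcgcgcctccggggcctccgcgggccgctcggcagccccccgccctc
Nr4a3: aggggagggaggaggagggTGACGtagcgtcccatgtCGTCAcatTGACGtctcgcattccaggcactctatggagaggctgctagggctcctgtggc
Each of the 3 windows of 250 bases held 4 half-sites, of which 3 lie in the printed stretch of Nr4a3. Of 32851 promoters in the RefSeq table, 45 held as many, 0.137%, and 17.8% held at least 1. Among 54 promoters of 37 member genes in that table, 12 held at least 1, 22.2%, and no member outside the NR4A genes held 4. This motif was chosen after the sequences had been seen, and the GC content of the 3 windows, 63.6 to 80.0%, was above the median of 52.4% over all promoters, so that the part of base composition in this count was not tested.

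The same windows of all 54 member promoters were searched on both strands for other elements. AGGTCA, the half-site that most of these receptors bind themselves, was in 9 promoters, 16.7%, against 14.0% of all promoters. It lay before Nr0b1, Nr1d2, Nr1h4, Nr5a2, Nr6a1, Pparg, Rarg and Thrb. DR4, a pair of AGGTCA half-sites with 4 bases between them that LXR and RXR bind, was in 0 of 54 and in 5 of all promoters, and AAAGGTCA, the NR4A element, which contains AGGTCA, was in 0 of 54 against 1.34%. The clock elements CACGTG and TTATGTAA were in 5 of 54, against 6.02% of all promoters, and in 0, against 0.819%. GGGCGG was in 25 of 54 against 32.7%, CCAAT in 20 against 33.8%, TATAAA in 8 against 12.4% and the full cyclic AMP element TGACGTCA in 1 against 1.55%. No match says only that these letters are absent from the window of 250 bases.

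Of 13 other immediate early genes, all tested, 2 were lower and none was higher at an unadjusted p under 0.05, and the median log2 fold change was -0.18. It was 0.16 without DMHCA library 2, with 9 of the 13 higher, and 0.01 with the 6 libraries as separate samples in edgeR. Egr3 was at 1099, 2326 and 1337 normalized counts in the controls and 472 and 688 with DMHCA, a log2 fold change of -1.45 ± 0.44 (SE), unadjusted p = 0.0146, and Klf2 at -1.02 ± 0.41 (SE), unadjusted p = 0.045. Both lay below every control in both DMHCA samples. Ier2 had a log2 fold change of 0.47 (unadjusted p = 0.109) and Egr2 of -1.53 (unadjusted p = 0.117). Egr2 was at -3.09 without DMHCA library 2 and -0.89 without control 2, and Klf2 at -0.67 without control 3.

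Nr6a1, the germ cell nuclear factor gene, had normalized counts of 547, 448 and 542 in the controls and 790.4 and 646 with DMHCA. Each DMHCA sample exceeded every control, with a log2 fold change of 0.49 ± 0.35 (SE) and an unadjusted p of 0.216. Nr5a2, also called LRH-1, was high in DMHCA library 2 alone, at 154 normalized counts against 35.6 in the merged DMHCA sample and 20.6 to 91.2 in the controls. Its log2 fold change of 1.01 ± 0.90 (SE), unadjusted p = 0.302, turned to -0.34 without DMHCA library 2.

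The 11 untested genes were the bile acid and xenobiotic receptors Nr1h4 (FXR), Nr1i2 (PXR) and Nr1i3 (CAR), the liver factors Hnf4a and Hnf4g, the retina and brain genes Rorb, Nr2e1 and Nr2e3, the steroidogenic factor Nr5a1 and the atypical receptors Nr0b1 and Nr0b2. Their mean TPM was at most 0.117. The highest single value was that of Nr1i2 in control 2, at 65.4 normalized counts, against 0 to 9.65 with DMHCA and 2.61 and 4.62 in the other controls. Hnf4g and Nr0b1 had a count of 0 in all 6 libraries, which allows up to 0.0473 to 0.0647 CPM, taking 3 counts as the limit and covering counting error only. Of 10 bile acid and xenobiotic target genes, only Slc51a, a bile acid transporter gene, was high enough to test, at 17.9 to 35.6 normalized counts and a log2 fold change of -0.49 (unadjusted p = 0.438), or -0.20 without control 2. Apart from Slc51a, the counts of these receptors and targets were too low for a comparison between the groups.

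Many of these receptors share coactivators and corepressors. Of 18 such genes, all tested, 1 was higher and none lower at an unadjusted p under 0.05, against 3.36% and 4.22% of all genes. Above every control lay 4 and below them none, against 13.1% and 12.7% of all genes. With DMHCA, 13 had a higher mean and 5 a lower one, and the median log2 fold change was 0.25, against -0.05 over all genes tested. This median was 0.16 without control 3 or without DMHCA library 2 and 0.41 with log2(TPM + 1), and 9 of the 18 lay above the controls without control 1, where 19.5% of all genes did so. Prmt1, an arginine methyltransferase coactivator, had 7030.4, 5616 and 5549 normalized counts in the controls and 9444 and 10554 with DMHCA, a log2 fold change of 0.72 ± 0.25 (SE), unadjusted p = 0.0258. The acetyltransferase gene Ep300 was at 0.61 (unadjusted p = 0.0968), Ncoa6 at 0.37 (unadjusted p = 0.186) and Lcor at 0.61 (unadjusted p = 0.161), or 0.36 without DMHCA library 2. Ncor1, a corepressor that holds unliganded receptors silent, had a log2 fold change of 0.19, or 0.31 without control 1 and 0.12 without DMHCA library 2.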

How the data were processed

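RNA from mammary tissue was sequenced in 3 control and 3 DMHCA libraries, and reads were trimmed with cutadapt 2.9 and aligned and counted by the authors with Bowtie2 2.4.1 and RSEM 1.3.1 on mm10. The deposited tables give an expected count and a TPM value per gene and library, both made by the authors with RSEM. Strand use in counting is not given in the sources used here. Nothing states that libraries of a group came from separate litters or days.

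Expected counts were rounded, DMHCA libraries 1 and 3 were summed, genes were filtered with filterByExpr (minimum count 10), and groups were compared with edgeR 4.0.16 (TMM, quasi-likelihood test) in R 4.3.3, with p-values adjusted by Benjamini-Hochberg over all genes tested. A normalized count is a count scaled to the mean TMM-corrected library size. Fold changes are DMHCA over control, and p-values measure only the spread between these samples. TPM (DMHCA libraries 1 and 3 averaged) served to compare levels between genes. Alternatives were DESeq2 1.42.0, the 6 libraries as separate samples, a replicate block, other filters and size factors, limma 3.58.1 on log2 TPM, and each library left out. The fits were checked on simulated counts.

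The members and the 12 gene lists were chosen with earlier results of these data known. Statistics were given for members with an unadjusted p under 0.05, no overlap between groups or an absolute log2 fold change of at least 1, values per sample also for the 10 members of highest mean TPM, and from each list the up to 4 genes of smallest p were named. Other list genes, such as Tef, Dbp, Arntl, Greb1 and Ncor1, were named as partners of a member. Some list genes that this rule names are not reported here, and the counts over the lists include them. Upstream sequences came from the RefSeq table on GRCm38.p6. Of 41 members, 37 were in it. TGACG was searched on both strands, and its matches include those of the full element TGACGTCA.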

Additional observations from a re-analysis of the deposited data

How the results depend on the processing

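All 16 alternatives kept the direction of Esr1, Nr4a1, Ppard, Thrb, Nr4a3, Esrra, Nr6a1, Rara, Nr4a2, Nr3c2, Vdr, Pgr, Esr2 and Ppara. None left out the merged DMHCA sample as a whole, since leaving out DMHCA library 1 or 3 kept its near-identical partner. Directions that rest on that sample, such as that of Esr2, were therefore not put to this check. Esr2 had 8.37 normalized counts in DMHCA library 2, against a control mean of 15.4. With a library left out, 9 of the 30 tested members reversed: Pparg, which ranged from -1.41 to 0.0897, Esrrb, from -3.48 to 0.0890, Nr2f1 and Rarg without control replicate 3, Nr5a2, from -0.34 to 1.92, Rarb, from -0.68 to 1.33, and Rora without DMHCA replicate 2, Nr2c1 with control replicate 3 or DMHCA replicate 2 left out, and Nr2c2 without control replicate 2. Thra and Nr2f1 reversed with log2 TPM. Members called at an adjusted p under 0.05 numbered 1 with DESeq2 on the 5 samples (244 genes in all) and 2 on the 6 libraries (865 genes), and 0 elsewhere, with 16 genes in all and no low-count filter. At an unadjusted p under 0.05, against 3 higher and 1 lower, there were 3 lower with DESeq2 on the 5 samples (4.34% of all genes), 5 higher and 4 lower with DESeq2 on the 6 libraries (4.13% and 6.19%), 4 higher and 3 lower with edgeR on the 6 libraries (7.56% and 8.04%), 2 higher and 3 lower with no filter (2.84% and 5.10%) and 0 lower with limma on log2(TPM + 1) (1.58%). Members without overlap above the controls numbered 8 of 31 with either TPM pseudocount, where 18.5% of all genes did so. The median log2 fold change of the members was 0.042 with DESeq2 on the 6 libraries and 0.541 with log2(TPM + 0.1), where the median of all genes moved from -0.05 to 0.07 with log2(TPM + 1) and 0.14 with log2(TPM + 0.1). Leaving out each library gave 1 to 3 members higher and 1 to 4 lower, 5 to 11 and 3 to 7 without overlap, and medians of 0.028 to 0.410; without DMHCA replicate 2, the lone DMHCA sample was assumed to vary like the controls. The extremes were 0.028 and 11 of 33 above the controls without DMHCA library 2 (26.2% of all genes), 0.410 without control 1, and 4 lower (6.48% of all genes) and 7 of 30 below the controls (21.5%) without control 2. With the replicate block on the 6 libraries, 5 members were higher and 4 lower at an unadjusted p under 0.05, against 9.10% and 8.08% of all genes; same-numbered libraries correlated at -0.058, 0.342 and 0.359 in their deviations and control 1 correlated best with DMHCA library 2 (0.080), so the numbers were not taken to pair the samples. An unadjusted p under 0.05 was met in 15 of the 16 alternatives by Esr1 and Nr4a1, in 10 by Thrb and in 9 by Ppard. Some low members were imprecise: among the controls, Esr2 differed 14.1-fold, Pgr 35.2-fold and Esrrb 54-fold.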
